A study of Bos taurus with 6 samples.

Results

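The region examined was the stretch of bovine chromosome 23 from base 25000000 to base 29000000 of the UMD3.1 genome, which carries the label of the major histocompatibility complex (MHC). Its members were the CpGs in this interval covered by 5 to 500 reads in all 6 libraries of the series. There were 3321 of them among 1580644 such CpGs in the genome, and the rest of chromosome 23 held 41477. The first member lay at base 25017092 and the last at base 28950780. The region held 7.41% of the CpGs of chromosome 23 on 7.62% of its length.

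The libraries were made by reduced representation bisulfite sequencing (RRBS), in which DNA is digested with MspI, short fragments are selected and converted with bisulfite, and the share of reads that kept a cytosine gives the methylation percentage of each CpG. Sperm came from commercial semen straws of Holstein bulls, and monocytes were purified with magnetic beads from the blood of Holstein cows. Fibroblasts were grown over serial passages in culture from ear skin of adult Holstein heifers. There were 2 libraries per cell type from 2 animals. Cell type was therefore joined to sex (sperm against the others) and to culture (fibroblasts against the others). Each cell type also came from other animals, so that it was joined to genotype as well. These cannot be told apart. A base read as T because of a sequence variant counts as unmethylated here, and genotypes were not examined. Monocyte libraries were amplified with 12 PCR cycles and the others with 14. The labels give no treatment. No library measured transcripts, so that the labelled cell types could not be checked against marker genes.

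The MHC of cattle, called BoLA, is a dense group of genes of the immune system. Class I molecules present peptides from inside the cell to cytotoxic T cells and are made by nearly every nucleated cell. Class II molecules present peptides from outside the cell to helper T cells and are mostly made by antigen presenting cells, monocytes among them. Class III genes between them encode complement components and cytokines such as tumour necrosis factor. In cattle the class II genes lie in separate clusters on the same chromosome. DNA methylation of CpGs at promoters and enhancers is usually low where these are active, and CpG islands (short stretches dense in CpGs) are usually unmethylated in every cell type. No annotation of the UMD3.1 build was used here, so positions were not matched to genes, and the label of the region rests on its coordinates alone.

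The 6 libraries held 45884839 to 78890776 CpG calls in all. Within the region the median coverage of a member ranged from 15 to 25 reads between libraries, and no CpG of the region was covered by more than 500 reads in any of them. At these depths 1 read moves the percentage of a CpG by several points. PCR duplicates cannot be recognised in such data, so that counting limits below cover counting error only. With 2 libraries per cell type, all SDs are over 2 animals.

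The region was less methylated than the rest of chromosome 23 in every library. Sperm had a mean methylation of 33.6% and 33.7% in the region in its 2 libraries and of 53.9% and 53.6% in the rest. Monocytes had 40.7% and 40.1% in the region and 57.6% and 57.4% in the rest. Fibroblasts had 36.3% and 37.1% in the region and 50.6% and 50.7% in the rest. The libraries of the 3 cell types did not overlap within the region, monocytes being the highest and sperm the lowest. Outside the region the order was another one, with fibroblasts the lowest.

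Sperm showed the widest difference between region and rest, −20.1 ± 0.272 points, followed by monocytes with −17.1 ± 0.208 points and fibroblasts with −13.9 ± 0.511 points (SD, n = 2 each). Over the 6 libraries it averaged −17.0 points, with a range from −20.3 to −13.6 points. An exact two-sided sign-flip test over the 6 libraries gave p = 0.03125, the smallest it can give. After Benjamini-Hochberg adjustment over the 19 permutation tests made, its p was 0.158. The libraries were read at the same CpGs, so this test covers the libraries only and cannot show that the region stands out. Lower means were also found in single bins elsewhere on the chromosome. Of the 47 other bins of 1 Mb with at least 50 CpGs, 14 were below the region in sperm, 12 were so in monocytes and 15 in fibroblasts. The lowest of them, the bin starting at base 30000000, lay 1 Mb beyond the region and had 4.93% in sperm, 13.1% in monocytes and 9.85% in fibroblasts. These bins are shorter than the region and some hold few CpGs. Stretches of its length were not compared, so the order does not show how unusual the region was.

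Between cell types, monocytes exceeded the other 4 libraries by 5.23 points in the region, with an exact two-sided permutation p = 0.0667, the smallest that 2 libraries against 4 can give. The monocyte gap between region and rest differed from that of the other libraries by −0.0796 points (exact permutation p = 1), and monocytes were also the highest in the rest of the chromosome. For fibroblasts this contrast was 4.66 points, a smaller gap than in the other libraries (exact permutation p = 0.0667), and for sperm it was −4.58 points, a larger gap (exact permutation p = 0.133). None of these differences passed 0.05, which this design cannot reach, and the lowest adjusted p was 0.158. The mean depended on how CpGs were weighted. When means of 1 kb windows were averaged, so that CpG-dense stretches counted less, sperm had 56.8 ± 0.199% in the region, monocytes 57.0 ± 0.585% and fibroblasts 49.8 ± 0.563% (SD, n = 2 each), and sperm was no longer the lowest.

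**Figure D1:**
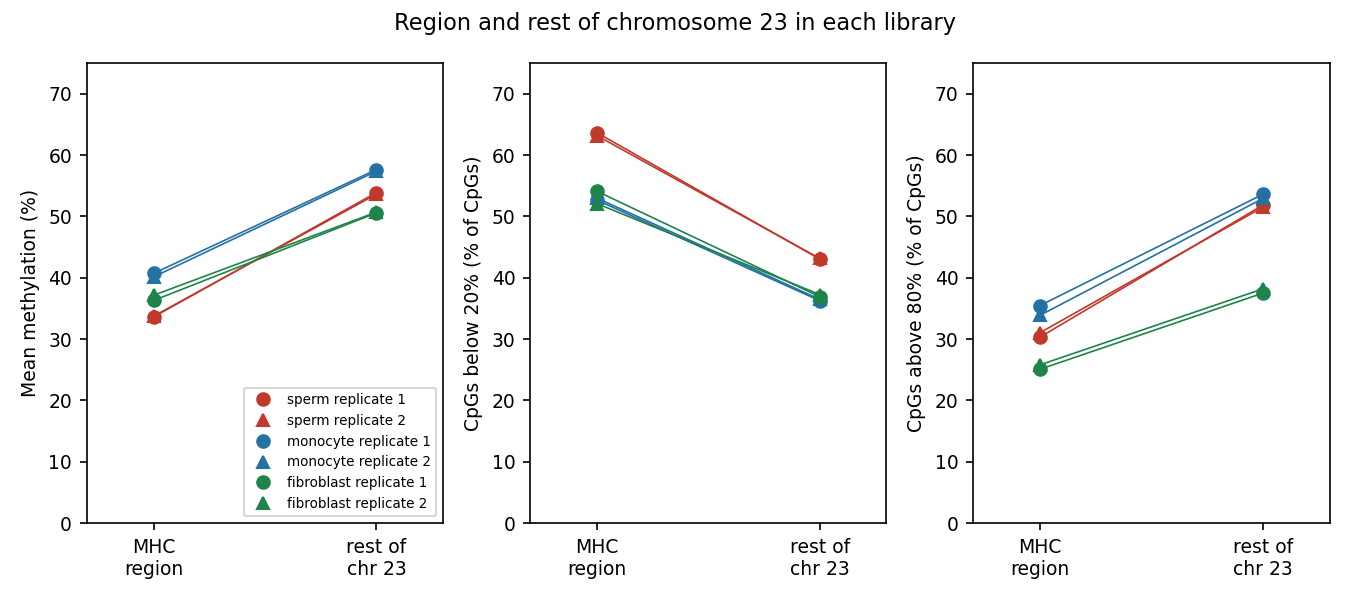
Mean methylation (left, % of reads), share of CpGs below 20% (middle) and share above 80% (right) in the MHC region and in the rest of chromosome 23, with 1 line per library, colours for the cell types and circles and triangles for replicates 1 and 2. All 6 lines run up in the left panel, from between 33.6% and 40.7% in the region to between 50.6% and 57.6% in the rest, and sperm stands above the others in the middle panel.

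The lower level came with more unmethylated CpGs. In sperm 63.4 ± 0.341% of the region CpGs were below 20%, against 43.1% in the rest of the chromosome. Monocytes had 52.8 ± 0.234% against 36.4%, and fibroblasts 53.1 ± 1.43% against 37.1% (SD, n = 2 each). Above 80% lay 30.7 ± 0.511% of the region CpGs of sperm, 34.7 ± 1.13% of those of monocytes and 25.4 ± 0.511% of those of fibroblasts, against 51.7%, 53.3% and 37.8% in the rest. Over the 6 libraries the share below 20% was 17.6 points higher in the region and the share above 80% was 17.3 points lower. Exact sign-flip tests gave p = 0.03125 for each (adjusted p = 0.158), with the same limit as for the mean.

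CpGs between 20% and 80% made up 5.90 ± 0.170% of the region in sperm; monocytes had 12.5 ± 0.894% and fibroblasts 21.5 ± 0.916% (SD, n = 2 each). Fibroblasts thus held the most partly methylated CpGs, as they did in the rest of the chromosome, where they had 25.1%. The difference of region and rest in this class was −0.272 points over the 6 libraries (exact sign-flip p = 0.875). The region held 1489 CpGs (44.8%) below 20% in all 6 libraries, against 29.9% in the rest of the chromosome. It held 482 CpGs (14.5%) above 80% in all 6, against 21.5% in the rest.

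Region CpGs also lay closer together. The median number of other CpGs listed within 100 bp was 12 in the region and 10 in the rest. Methylation decreased with this local density in all 3 cell types and in both parts of the chromosome. Among the 334 region CpGs with 0 to 4 neighbours, sperm averaged 77.9%, monocytes 71.6% and fibroblasts 60.5%, against 87.0%, 81.8% and 66.0% in the rest. Among the 891 with 10 to 14 neighbours, sperm averaged 26.9%, monocytes 37.0% and fibroblasts 34.3%, against 52.0%, 58.3% and 53.3%. Among the 603 with 20 or more neighbours, sperm averaged 4.14%, monocytes 15.3% and fibroblasts 17.0%, against 5.94%, 15.7% and 15.7%. The largest gaps to the rest were therefore at intermediate density, and the densest CpGs of the region and of the rest were within 2 points of each other. Sperm was the most methylated cell type where CpGs were sparse and the least methylated where they were dense.

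When the rest of the chromosome was reweighted to the density classes of the region, the difference became −14.9 and −14.6 points for the sperm libraries, −12.7 and −13.0 points for monocytes and −11.1 and −10.3 points for fibroblasts. The region thus remained lower in each library, by a smaller amount. This reweighting was chosen after the data had been seen.

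**Figure D2:**
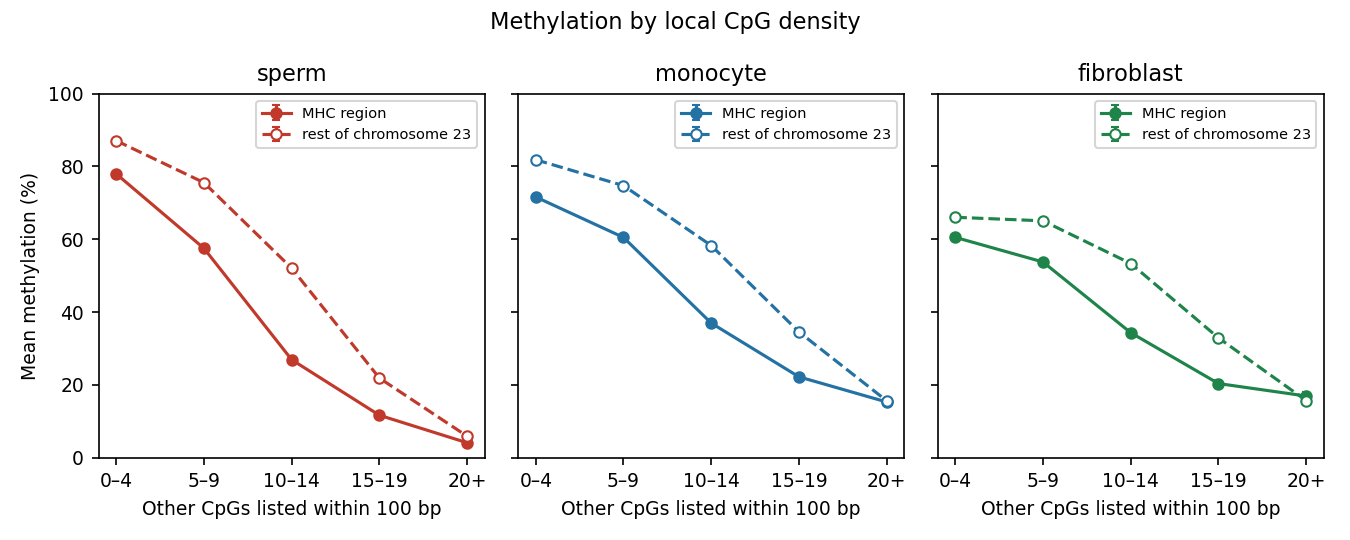
Mean methylation (%) against the number of other listed CpGs within 100 bp, in 5 classes, for sperm, monocytes and fibroblasts. Filled points and solid lines are the MHC region, open points and dashed lines the rest of chromosome 23, and error bars (SD of 2 libraries) are mostly smaller than the points. The solid line runs below the dashed one up to 19 neighbours and meets it at 20 or more.

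Coverage was uneven along the region. Of 11818 positions of the region listed in any library, 3321 (28.1%) were covered by 5 to 500 reads in all 6, against 33.0% of the 125875 positions listed in the rest of the chromosome. The last 2 Mb held 2996 members (90.2%). Between base 25300000 and base 26899999, 16 consecutive bins of 100 kb held fewer than 10 members each. Only 647 positions were listed there in any library and 25 of them (3.86%) were members, against 29.5% of the 11171 positions listed in the other 24 bins. Over these 25 CpGs, sperm averaged 74.8% and 78.9%, monocytes 85.0% and 84.3%, and fibroblasts 46.7% and 47.8%. They were thus methylated in sperm and monocytes and partly methylated in fibroblasts, and little can be said of this stretch from so few CpGs.

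Among the 21 bins of 100 kb with at least 50 CpGs, the monocyte mean ranged from 0.607% to 64.4%. Monocytes were above both other cell types in 12 of these bins and below both in 4. The bin starting at base 28300000 was unmethylated in all cell types, its 103 CpGs averaging 0.533% in sperm, with 0.607% for monocytes and 4.08% for fibroblasts. The bin starting at base 27700000 had the highest monocyte mean, 64.4 ± 1.76% (SD, n = 2), against 33.7 ± 0.798% in sperm and 50.2 ± 0.0291% in fibroblasts. In the bin starting at base 27600000, sperm was almost unmethylated at 3.75 ± 0.0366%, while monocytes had 30.0 ± 0.263% and fibroblasts 20.7 ± 0.148%. In the bin starting at base 27500000 the order was the opposite one, with 33.5 ± 1.69% in monocytes, 39.1 ± 0.842% in fibroblasts and 45.3 ± 0.485% in sperm. The libraries of different cell types did not overlap in these last 3 bins.

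**Figure D3:**
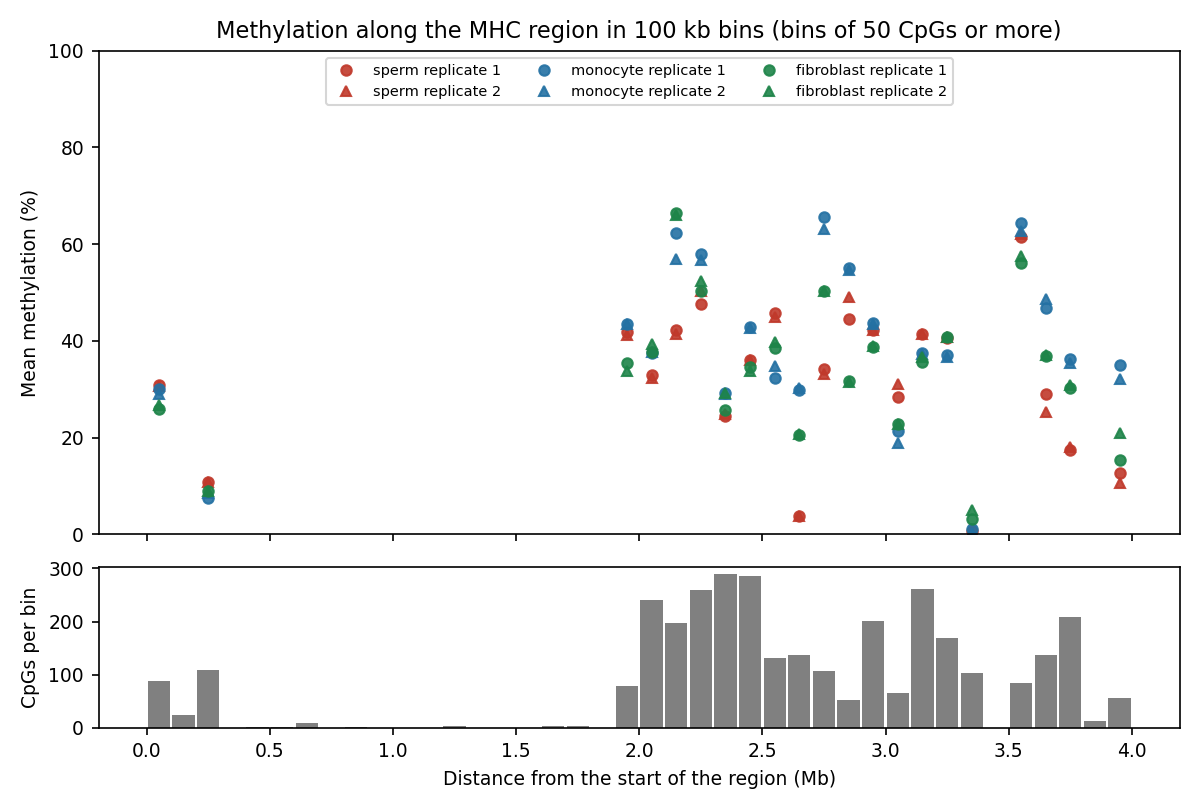
Mean methylation (upper panel, %) of each library in bins of 100 kb along the MHC region, for bins with at least 50 CpGs, and number of member CpGs per bin (lower panel), against the distance from the start of the region in Mb. The gap to the left is the stretch of 1.6 Mb with few CpGs. In the bin at 2.5 Mb the blue monocyte points lie lowest, and in the bin at 2.7 Mb they lie highest.

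Differentially methylated CpGs (DMCs) were then sought between each pair of cell types. A DMC had an adjusted p below 0.01 in a logistic likelihood-ratio test of the reads pooled over the 2 libraries of each cell type, adjusted over all 1580644 CpGs, and a difference of at least 25 points. This test takes no account of differences between the 2 animals of a cell type. The quasi-likelihood test of edgeR does so, and its counts are given beside it. Percentages of all CpGs tested are the background against which the counts of the region are to be read.

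Between monocytes and sperm, 590 region CpGs were DMCs (17.8%), against 18.8% of all CpGs tested and 18.4% in the rest of the chromosome, so that the total was close to the background. Monocytes were higher at 469 of them (14.1%, background 13.3%) and lower at 121 (3.64%, background 5.48%). edgeR called 299 and 63 (backgrounds 9.26% and 3.14%), and as shares of the region CpGs both were below those backgrounds. Monocytes were thus the higher cell type at 79.5% of the DMCs of the region, and at 65.6% in the rest of the chromosome.

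Between fibroblasts and sperm, 715 region CpGs were DMCs (21.5%), against 28.3% of all CpGs tested and 27.8% in the rest. Fibroblasts were higher at 434 (13.1%, background 12.1%) and lower at 281 (8.46%, background 16.2%). edgeR called 260 and 85 (backgrounds 7.70% and 7.22%). The region therefore had about the background share of CpGs more methylated in fibroblasts, and a smaller share of CpGs less methylated in fibroblasts.

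Between monocytes and fibroblasts, 454 region CpGs were DMCs (13.7%), against 17.0% of all CpGs tested and 17.5% in the rest. Monocytes were higher at 313 (9.42%, background 13.7%) and lower at 141 (4.25%, background 3.30%). edgeR called 42 and 34 (backgrounds 2.81% and 1.14%), 2.29% of the region against 3.95% of all CpGs tested. By edgeR both directions were below their backgrounds, so the larger share of CpGs lower in monocytes was seen only by the first test. Without monocyte replicate 1, 185 were higher in monocytes. The 2 libraries of one cell type did not overlap those of the other at 580, 700 and 445 of the DMCs of the 3 comparisons (97.9% to 98.3% of those called), against 98.3% to 98.6% of those called among all CpGs tested. Such DMCs were 18.6%, 27.9% and 16.7% of all CpGs tested. In all, 2412 region CpGs (72.6%) were a DMC in none of the comparisons, against 66.4% in the rest, and 102 (3.07%) were a DMC in all 3.

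A CpG was called monocyte-low where monocytes were the lower side of a DMC in both of their comparisons, and the other patterns were defined in the same way. The region held 52 monocyte-low DMCs (1.57%), against 2.06% of all CpGs tested and 2.87% in the rest of the chromosome. It held 139 monocyte-high DMCs (4.19%), against 3.15% and 2.48%. Without matching for CpG density, monocyte-low CpGs were therefore less frequent in the region than outside it and monocyte-high ones more frequent. edgeR called 18 monocyte-low DMCs (0.542%, background 0.789%) and 27 monocyte-high DMCs (0.813%, background 0.684%), with the same order to the rest of the chromosome, where it called 1.13% and 0.439%. Leaving out monocyte replicate 1 left 46 monocyte-low DMCs, of which 37 were among the 52, and 90 monocyte-high DMCs. The order of the monocyte-low shares depended on CpG density. With 0 to 4 neighbours within 100 bp the region had the larger share, 5.09% (17 of 334 CpGs) against 3.47% in the rest. In each denser class it had the smaller share. The region also held more CpGs below 20% in all 6 libraries (44.8% against 29.9%), and these cannot be monocyte-low.

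The region held 343 sperm-low DMCs (10.3%, background 10.4%), a share near the background. edgeR called 178 (background 6.49%), and as a share of the region CpGs this was below that background. Sperm-high DMCs numbered 71 (2.14%, background 3.56%) and edgeR called 17 (background 1.48%). Fibroblast-low DMCs numbered 158 (4.76%, background 9.83%) and edgeR called 11 (background 1.93%). This last share was 10.1% in the rest of the chromosome. Without monocyte replicate 1 there were 88 fibroblast-low DMCs, and without monocyte replicate 2 there were 104. Fibroblast-high DMCs numbered 87 (2.62%, background 1.13%). edgeR called 10, as a share of the region CpGs close to its background of 0.286%. The larger share was thus seen only by the first test. One cluster held 47 (54.0%) of these 87, and outside it 1.24% of the region CpGs were fibroblast-high. The rest of the chromosome had 1.21% with all its own clusters kept, so these 2 shares cannot be compared. Without monocyte replicate 2 there were 56 fibroblast-high DMCs. The patterns overlap by construction, since 51 CpGs were both monocyte-high and sperm-low, 32 both sperm-low and fibroblast-high, and 12 both monocyte-low and sperm-high. The 6 patterns together covered 748 CpGs (22.5%), against 27.8% in the rest.

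**Figure D4:**
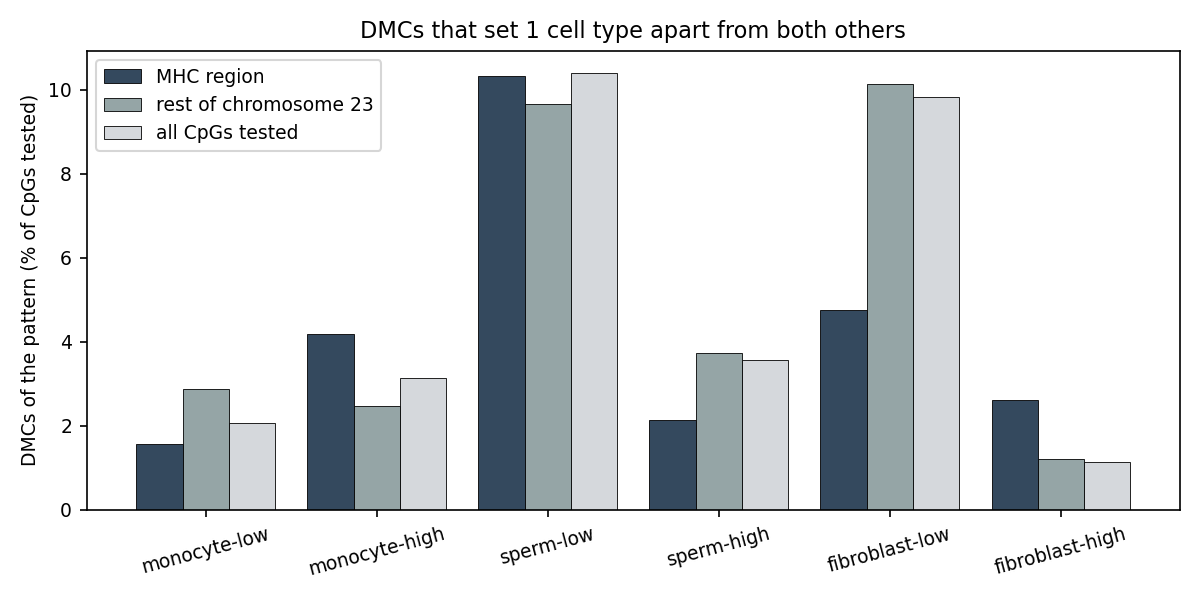
Share of CpGs (%) that showed each DMC pattern in the MHC region, the rest of chromosome 23 and all CpGs tested, by the likelihood-ratio test. By edgeR the fibroblast-high share of the region was close to that of all CpGs tested. The bars of the region are the shorter ones for monocyte-low (1.57% against 2.87% in the rest) and fibroblast-low (4.76% against 10.1%) and the taller ones for monocyte-high (4.19% against 2.48%) and fibroblast-high (2.62% against 1.21%).

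The 52 monocyte-low DMCs were not all of one kind. Sperm had a median of 96.0% at them, monocytes one of 6.48% and fibroblasts one of 85.3%. Both monocyte libraries were below 20% at 35 of them, and the mean of the 2 was 20% or more at 15. Sperm was above 80% at 41 and fibroblasts at 28. All 4 other libraries were above 80% at 19, and 9 CpGs met both limits. The monocyte libraries lay below all 4 others at 51 of the 52 (98.1%), a count that the choice of these CpGs largely fixes. Coverage ran from 5 to 47 reads, with a median of 18.

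These CpGs lay in sparser surroundings than the region as a whole. They had a median of 6 neighbours within 100 bp, against 12 for all region CpGs, and 43 of them (82.7%) had fewer than 10, against 37.5% of the region. None of the 580 region CpGs with 15 to 19 neighbours and of the 603 with 20 or more was monocyte-low. In the rest of the chromosome monocyte-low CpGs had a median of 8 neighbours, against 10 for all. Among CpGs with 0 to 4 neighbours, 5.09% were monocyte-low in the region and 3.47% in the rest. Among those with 10 to 14 neighbours, the shares were 1.01% and 3.36%.

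**Figure D5:**
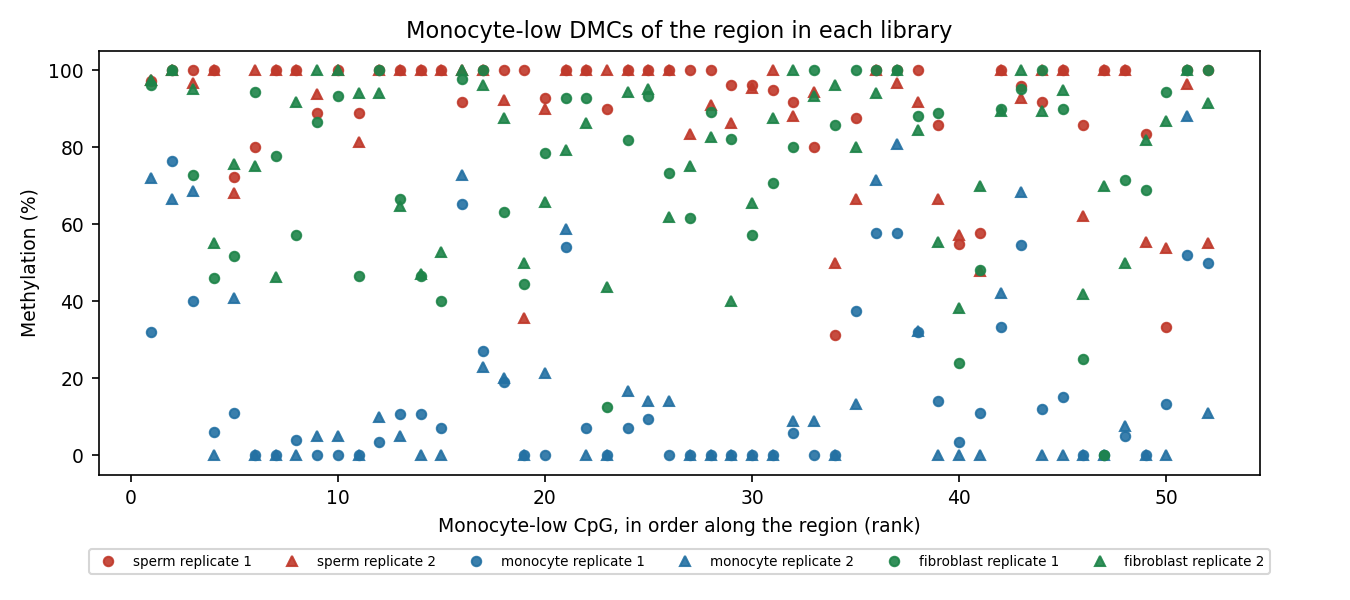
Methylation (%) of the 52 monocyte-low DMCs of the MHC region in each of the 6 libraries, in order along the region. Blue points are the monocyte libraries, which both lie below 20% at 35 CpGs and reach up to 88.2% at the others; red sperm and green fibroblast points lie above them at 51 of the 52, and the fibroblast points spread from 0% to 100%.

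Monocyte-low DMCs were partly clustered, in the region less so than every other pattern except fibroblast-low. The patterns were not matched for number of DMCs or CpG density, and clusters outside the region were not counted. Runs of monocyte-low DMCs with gaps of at most 1000 bp numbered 24. Of these, 14 were single CpGs and 7 were clusters of 3 or more that held 32 of the 52 (61.5%). The bin starting at base 27500000 held 14, which was 10.7% of its 131 CpGs and the highest share of any bin with at least 50 CpGs. The bin starting at base 27000000 held 11 of 241 (4.56%), and the lowest share was 0, in several bins, among them that starting at base 27600000.

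The cluster with the most monocyte-low DMCs lay at chr23:27092103-27092342, where 10 of 11 CpGs were called. Over the 11 CpGs, sperm averaged 96.1% and 97.7% in its 2 libraries, monocytes 3.27% and 2.27%, and fibroblasts 68.3% and 69.6%. Monocytes were thus close to unmethylated over 240 bp, sperm was close to fully methylated and fibroblasts lay between them, with no overlap between libraries of different cell types. At the 10 DMCs the monocyte libraries had 10 methylated of 259 calls and 5 of 184. Sperm had 95 of 100 and 143 of 147, and fibroblasts 115 of 162 and 150 of 199. The CpG of the cluster with the lowest monocyte level relative to the others was at base 27092234, with 0% and 5% in monocytes, 100% and 100% in sperm and 93.3% and 100% in fibroblasts, on 9 to 28 reads. Its adjusted p was 6.63e-19 against sperm and 5.24e-19 against fibroblasts (likelihood-ratio test). edgeR called 7 of the 10. The uncalled CpG, at base 27092297, was at 0% in both monocyte libraries, at 100% in both sperm libraries and at 42.8% and 0% in fibroblasts.

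The cluster at chr23:27549289-27549441 was unmethylated in monocytes at each of its 5 CpGs, all of them DMCs. The monocyte libraries had 0 methylated of 79 calls and 0 of 82. Since CpGs this close share reads, these calls are not independent, and the deepest single CpG, with 0 of 21 and 0 of 23 reads, allows a level of up to 14.3% and 13.0%. Sperm averaged 97.4% and 91.2%, and fibroblasts 72.1% and 70.1%. At base 27549293 monocytes had 0% in both libraries, sperm 100% and 90.9% and fibroblasts 89.2% and 82.5%, on 21 to 40 reads, with an adjusted p of 1.71e-24 against sperm and 6.84e-21 against fibroblasts (likelihood-ratio test). edgeR called 4 of the 5.

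About 1 kb further, 4 of 6 CpGs at chr23:27550493-27551242 were monocyte-low. Here the cell types other than monocytes were exchanged, with fibroblasts the more methylated at 91.9% and 94.2% and sperm at 53.6% and 52.6%, against 9.30% and 6.32% in monocytes. The sperm mean hid a division within the cluster. The CpGs at bases 27550493 and 27550504 had 80.0% to 94.4% in sperm, while those at bases 27551212 and 27551221, which were not called, had 0% to 18.7% in sperm and 0% to 12.5% in monocytes, against 85.7% to 100% in fibroblasts. edgeR called 2 of the 4. In the same bin, 3 CpGs at chr23:27535107-27535162 had 100% in both sperm libraries, 5.53% and 15.0% in monocytes and 82.8% and 83.8% in fibroblasts, and edgeR called 1 of them.

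At 2 further clusters the monocyte mean was above 20%. The 4 CpGs at chr23:28054013-28054067 averaged 28.8% and 27.6% in monocytes, against 96.9% and 98.2% in sperm and 93.8% and 93.4% in fibroblasts. This mean joined unlike CpGs. Monocytes had 12.1% and 0% at base 28054060 and 15.1% and 0% at base 28054067, but 33.3% to 68.4% at bases 28054013 and 28054019. At base 28054060 sperm had 91.6% and 100% and fibroblasts 100% and 89.4%, on 19 to 38 reads, with an adjusted p of 1.01e-21 against sperm and 3.46e-20 against fibroblasts (likelihood-ratio test). edgeR called 2 of the 4. The 3 CpGs at chr23:27784424-27784522 averaged 49.1% and 61.5% in monocytes, against 100% and 96.1% in sperm and 96.1% and 92.8% in fibroblasts. Its lowest CpG, at base 27784522, had 32.1% and 32.3% in monocytes. No CpG of this last cluster was called by edgeR.

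Since these CpGs were chosen by their levels, the replicates were also read apart. With CpGs chosen on the libraries of replicate 1 (monocytes below 20%, sperm and fibroblasts above 80%), 11 region CpGs were found. In the libraries of replicate 2, which had no part in the choice, monocytes had 0% to 16.6% at them with a median of 0%, sperm 66.6% to 100% and fibroblasts 40.0% to 100%. Monocytes were the lowest at all 11, and 9 (81.8%) met the same limits again. With the replicates exchanged, 14 CpGs were chosen. Monocyte replicate 1 had 0% to 15.1% at them with a median of 3.75%, it was the lowest library of replicate 1 at all 14, and 9 (64.3%) met the limits again. By construction these are the same 9 CpGs in both directions, and the 9 monocyte-low DMCs that met both limits above. The exchange is therefore no second check of them, and CpGs close together share reads. In the rest of the chromosome monocytes were the lowest at 339 of 356 and 361 of 366 CpGs chosen in the same way, and the same 221 (62.1% and 60.4%) met the limits again. Monocyte levels stayed below 20% in the libraries not used at 308 of those 356 and at 289 of those 366.

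Monocyte-high DMCs were more clustered than monocyte-low ones, 124 of 139 (89.2%) lying in 16 clusters. At chr23:27769874-27770594, 18 of 44 CpGs were monocyte-high. Over its 44 CpGs monocytes averaged 84.6% and 82.2%, fibroblasts 54.9% and 53.1% and sperm 4.43% and 3.78%. The cluster was thus graded between the 3 cell types rather than high in monocytes alone, and edgeR called none of the 18. At chr23:28705978-28706438, 17 of 52 CpGs were monocyte-high, with 96.2% and 94.3% in monocytes, 72.9% and 76.2% in fibroblasts and 22.6% and 24.8% in sperm, and edgeR called 1.

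Nearly all sperm-low DMCs were clustered, 329 of 343 (95.9%) in 23 clusters. The largest lay at chr23:27134172-27135482, where 67 of 92 CpGs were sperm-low and sperm averaged 0.507% and 0.434%. Monocytes had 40.1% and 31.4% there and fibroblasts 62.2% and 68.2%. edgeR called 32 of the 67. The second, at chr23:28705981-28706527, overlapped the monocyte-high cluster above. Sperm had 23.3% and 24.1% over its 54 CpGs, monocytes 96.3% and 94.6% and fibroblasts 74.8% and 76.7%, and edgeR called 18 of its 46 DMCs. Both were places where sperm was unmethylated or low and both somatic cell types were methylated to different degrees.

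The largest fibroblast-high cluster overlapped the first of these sperm-low clusters, at chr23:27134258-27135584 with 47 of 102 CpGs called. Fibroblasts averaged 59.3% and 63.1% over it, monocytes 36.1% and 27.9% and sperm 0.533% and 0.436%. The 2 monocyte libraries differed by more here than over the region as a whole, and edgeR called 2 of the 47. The next fibroblast-high cluster, chr23:27039651-27040842 with 8 of 27 CpGs, was low in all cell types, sperm averaging 1.29% and 1.33%, monocytes 9.85% and 4.46%, and fibroblasts 16.5% and 27.9%, and edgeR called none.

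Fibroblast-low DMCs were the most scattered, 87 of 158 (55.1%) lying in clusters. At chr23:27807625-27808240, 8 of 12 CpGs were called, with 53.7 ± 6.75% in fibroblasts, 89.8 ± 3.19% in monocytes and 96.5 ± 1.98% in sperm. At chr23:27066508-27067323, 7 of 8 CpGs were called, with 54.3 ± 10.4% in fibroblasts, 93.4 ± 0.168% in monocytes and 96.9 ± 2.17% in sperm (SD, n = 2 each). Fibroblasts were partly methylated at both and the other cell types nearly fully, and edgeR called no CpG of either.

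Sperm-high DMCs formed 11 clusters that held 48 of the 71 (67.6%). In the one with the most DMCs, chr23:28690933-28691128, all 10 CpGs were sperm-high, with 8.41% and 13.1% in monocytes and 13.2% and 6.67% in fibroblasts. The sperm libraries differed there, at 73.4% and 41.4%, on 6 to 22 reads per CpG, and edgeR called none of the 10. The next, chr23:27092056-27092342 with 6 of 12 CpGs, overlapped the first monocyte-low cluster, and 12 CpGs of the region were both monocyte-low and sperm-high.

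Differences between the 2 animals of a cell type gave a measure of how much the comparisons could vary. By the same test and limits, 8 region CpGs differed between the sperm libraries (0.241%, background 0.309%), 7 between the monocyte libraries (0.211%, background 0.173%) and 27 between the fibroblast libraries (0.813%, background 0.693%). These shares were close to the background. They rest on 1 animal against 1, with fewer reads than the tests between cell types, so their size cannot be set against those. Whatever the test, 2.89% of the region CpGs differed by at least 25 points between the sperm libraries (2.51% of all CpGs tested). For the monocyte libraries this was 4.67% (3.66% of all), and for the fibroblast libraries 8.10% (9.77% of all). The CpGs named next were chosen after their values had been seen. A run of 9 of 10 CpGs at chr23:27332369-27332480 differed between the fibroblast libraries, which had 0% to 10.8% in replicate 1 and 28.3% to 54.3% in replicate 2, on 38 to 82 reads. Sperm had at most 9.5% and monocytes at most 24.0% there. The CpG at base 28030990 was at 0% in sperm replicate 1 and 100% in replicate 2, while monocytes had 100% and 0% and fibroblasts 71.4% and 25.0%, on 7 to 23 reads in sperm and monocytes. The CpG at base 27286498 had 0% and 100% in the 2 monocyte libraries, on 29 and 10 reads. Sperm and monocytes shared 2 such CpGs and no others were shared between cell types.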

How the data were processed

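DNA methylation was measured by RRBS (paired-end reads of 75 bp, fragments of 40 to 290 bp) in 2 sperm, 2 monocyte and 2 fibroblast libraries. Per the labels, the authors used FastQC, Trim Galore 0.3.7, Bismark 0.14.3, Bowtie and methylKit on the UMD3.1 genome. The parameters of these tools are not given in the sources used here. The deposited tables list for each CpG a coverage, which is a count of reads, and the percent of reads with C and with T, truncated to 1 decimal. CpGs in the tables are on a single strand. Methylated read counts were computed here as coverage times percent, rounded, and gave back the deposited percent at 100% of CpGs with 5 to 500 reads. CpGs with 5 to 500 reads in all 6 libraries were kept.

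Libraries were grouped by the cell type in the labels, and 2 animals per cell type carry the error. DMCs were called by a logistic likelihood-ratio test of reads pooled over the 2 libraries of each cell type, with Benjamini-Hochberg adjustment over all 1580644 CpGs, an adjusted p below 0.01 and at least 25 points. edgeR 4.0.16 (R 4.3.3, quasi-likelihood test with both read counts of a CpG, common dispersion 0.117), Fisher's exact test, a replicate block, other thresholds and coverage minimums, and leaving out each library were alternatives. Levels were compared by exact two-sided permutation over libraries, 19 tests in all. Clusters were runs of DMCs with gaps of at most 1000 bp and at least 3 DMCs. The text names the 6 clusters with the most monocyte-low DMCs, the 2 with the most DMCs of each other pattern, the bins with the highest and lowest monocyte-low share and the lowest CpG of named monocyte-low clusters. The scripts were tested on simulated data (Python 3.11.15, scipy 1.17.1). The region, its members and these lists were chosen with earlier results of these data known. Replicate numbers name different animals, and deviations of same-numbered libraries correlated at −0.0770 to 0.00142 over region CpGs, so libraries were not paired. Gene names, gene lists and sequences were not used, since no genome or annotation of the UMD3.1 build was at hand.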

Additional observations from a re-analysis of the deposited data

Results flagged for a closer look

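In 2 of the 21 bins of 100 kb with at least 50 CpGs, cell types lay on opposite sides of the mean of the rest of chromosome 23, each in both of its libraries. These differences were not tested. In the bin from base 27100000 to base 27199999, with 197 CpGs, sperm was 11.9 points below the rest of the chromosome (−11.9 points) and fibroblasts 15.6 points above it, a difference of −27.5 points. In the bin from base 27700000 to base 27799999, with 107 CpGs, sperm was at −20.0 points and monocytes at 6.91 points, a difference of −26.9 points. In the same bin fibroblasts were at −0.389 points, which is 7.29 points below monocytes. The first bin holds the largest sperm-low and fibroblast-high clusters of the region, and the second the largest monocyte-high cluster. Bins with fewer CpGs were not compared in this way, although some were also divided. The 12 CpGs of the bin starting at base 28800000 had 26.2% for sperm, 96.0% for monocytes and 85.3% for fibroblasts.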

How the results depend on the processing

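The sign of contrasts near 0 depended on the setting. The fibroblast minus other libraries mean (−0.326 points) became 1.50 at a coverage of at least 10, 4.71 at 20 and 0.399 weighted by coverage, and ran from −1.47 to 0.893 when 1 library was left out. The monocyte contrast of region minus rest (−0.0796) became 0.646, 1.38 and, with the own CpGs of each library, 0.164, and ran from −1.17 to 1.07. The sperm contrast of the region mean (−4.90) became 3.33 over 1 kb windows. For shares of CpGs, the monocyte contrast between 20% and 80% became 5.16 at a coverage of 20 and ran from −3.81 to 1.63; the sperm contrast above 80% became −1.13 at a coverage of 10 and −3.75 at 20, and ran from −1.03 to 2.43; the fibroblast contrast above 80% became 0.860 at 20. The region minus rest difference ran from −17.7 to −16.4 points without 1 library, where the exact sign-flip test over 5 libraries cannot go below 0.0625.

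Counts of DMCs depended on the test and on depth. Under edgeR they were 299 and 63 (monocytes higher and lower than sperm), 260 and 85 (fibroblasts against sperm), 42 and 34 (monocytes against fibroblasts), 18 monocyte-low, 27 monocyte-high, 178 sperm-low, 17 sperm-high, 11 fibroblast-low and 10 fibroblast-high. The region kept 1925 CpGs at a coverage of at least 10 and 407 at 20. At 10 there were 63 (monocytes lower than sperm), 289 and 130 (fibroblasts against sperm), 168 and 89 (monocytes against fibroblasts), 28 monocyte-low, 92 monocyte-high, 33 sperm-high and 73 fibroblast-low. At 20 there were 75 and 5, 60 and 10, 27 and 22 for the 3 comparisons, and 4 monocyte-low, 20 monocyte-high, 53 sperm-low, 2 sperm-high, 7 fibroblast-low and 18 fibroblast-high. At least 40 points left 160 (fibroblasts lower than sperm), 195 (monocytes higher than fibroblasts), 84 fibroblast-low and 52 fibroblast-high, and 13 CpGs between the fibroblast libraries. An adjusted p below 0.001 left 100 fibroblast-low. Fisher's exact test left 5 CpGs between the sperm libraries and 15 between the fibroblast libraries. Clusters of at least 5 monocyte-low DMCs numbered 2. For these counts other than the smaller number of CpGs at higher coverage, the cause was not tested.

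Without monocyte replicate 1 there were 185 CpGs higher in monocytes than in fibroblasts, 90 monocyte-high and 88 fibroblast-low DMCs, and without monocyte replicate 2 there were 104 fibroblast-low and 56 fibroblast-high. Leaving out 1 library in turn gave 46 to 52 monocyte-low, 90 to 134 monocyte-high, 88 to 137 fibroblast-low and 56 to 81 fibroblast-high DMCs and 185 to 313 CpGs higher in monocytes than in fibroblasts. The share of monocyte-low DMCs stayed below that of the rest of the chromosome, and that of monocyte-high ones above it, in each of the 14 other settings tried for DMCs. These settings did not match CpG density between the region and the rest.

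With the replicate number as a block (Cochran-Mantel-Haenszel test) there were 455 and 114, 412 and 245, and 272 and 130 DMCs in the 3 comparisons, 48 monocyte-low, 125 monocyte-high, 326 sperm-low, 66 sperm-high, 126 fibroblast-low and 77 fibroblast-high, each within 1.5 times the count without it. The numbers do not pair the animals.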
